A study of Saccharomyces cerevisiae with 10 samples.

Results

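SGS1, TOP3, RMI1, SRS2, MUS81, MMS4, SLX1, SLX4, RTT107 and MPH1 encode the helicases, nucleases, topoisomerase and scaffold with which budding yeast, Saccharomyces cerevisiae, takes apart branched DNA that arises during homologous recombination and at stalled replication forks. The 10 deletion strains were chosen by gene symbol from a pooled screen of survival and growth after hydrogen peroxide, and all 10 were among the 4611 strains measured. The choice was made with earlier results of these data known, which limits every comparison of the members with all strains. Relative to the median strain, the strain without MUS81, a structure-specific nuclease subunit, was rarer after the high dose on 4 of 4 arrays. Its mean log ratio was −0.38 (SE 0.08, n = 4), with a limma adjusted p of 0.114 (Benjamini-Hochberg over all strains). This strain was the only member past the threshold of the study's methods, an unadjusted p of 0.005, in either comparison. It did not pass after adjustment. Over all strains, 2.67% passed that threshold with a lower acute value. Mean log ratios of the strains without TOP3, RTT107 and MMS4 were −0.37, −0.35 and −0.26 and did not pass, and that of the strain without RMI1, partner of Top3, was 0.03 (SE 0.08). When pretreated cells were set against cells given the high dose alone, 9 of the 10 strains had a mean above 0, beside 45.5% of all strains. None passed the threshold, and the members' median was 0.06 by the first barcode tag alone and 0.289 by the second.

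In yeast, Sgs1 is a DNA helicase of the RecQ family that works with the topoisomerase Top3 and the accessory protein Rmi1 to separate paired recombination junctions without crossing over. Mus81 and Mms4 form a nuclease that cuts such junctions and branched forks, and Slx1 and Slx4 form another. Srs2 is a helicase that limits recombination, Mph1 is a helicase that unwinds early invasion intermediates, and Rtt107 is a scaffold with BRCT domains that binds Slx4. Hydrogen peroxide oxidises bases and breaks DNA strands, and recombination can repair broken DNA.

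The pool was made of 4831 viable haploid deletion strains, each lacking 1 gene and carrying a pair of barcode tags, and the abundance of every strain was read by hybridising tags amplified from pooled DNA. In the acute arrays (n = 4), 1 portion of a culture in YPD received 0.4 mM hydrogen peroxide for 1 h (Cy5) and the other portion none (Cy3). In the adapted arrays (n = 6), 1 portion received 0.1 mM for 45 min (Cy5) and the other a sham treatment (Cy3), and both then received 0.4 mM for 1 h. All portions then grew for 5 h in fresh YPD, and each array came from its own frozen aliquot and culture. Values are log ratios of Cy5 over Cy3, read as natural logs because no source used here names their base. The authors' normalization gave the intensity distributions a shared median, so a value near 0 marks a strain that changed like the median strain. Below 0, the strain was scarcer, relative to the median strain, in the treated portion of an acute array. In an adapted array it was scarcer in the pretreated portion, in the same sense. Falls, rises, losses and gains are also relative to the median strain. Loss of cells during treatment and slower growth during the 5 h afterwards cannot be told apart by such a ratio. Cy5 marked the treated or pretreated portion on every array, and an effect of the dye cannot be told apart from one of the treatment. Each gene is represented by a single strain, and a further mutation in that strain would be read as an effect of its deletion.

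Replicate arrays differed widely. Correlations of strain values between acute arrays ran from −0.108 to 0.511 and between adapted arrays from −0.283 to 0.602, with the lowest between adapted replicates 2 and 4. In the first set of tags alone, acute replicates 1 and 4 had an r of −0.439 and adapted replicates 2 and 4 an r of −0.664, while in the second set the same pairs had 0.366 and 0.298. The median SD of a strain between arrays was 0.225 in the acute and 0.229 in the adapted set. The sign of ratios changes within the array, and spots numbered above 5400 were turned, a rule known with the study's own order of strains in view, so that the overall direction is not an independent measurement. With that direction the strain without YAP1, the transcription factor that activates peroxide defence genes, had the lowest acute mean of all 4611 strains, −1.64 (SE 0.13, limma adjusted p = 0.0446). The strain without SKN7, a partner factor of Yap1, had −1.49 (SE 0.14, limma adjusted p = 0.0635).

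In the acute comparison, 2.67% of all strains passed the threshold with a lower value and 0.933% with a higher value. Among the 10 members, 1 passed lower (MUS81) and 0 higher. The members' median mean log ratio was −0.133, beside −0.015 over all strains, and 7 of 10 members lay below 0, beside 54.8% of all strains. An unadjusted limma p under 0.05 was found for 3 of 10 members (MUS81, TOP3 and MMS4), beside 12.6% of all strains. Values below 0 on all 4 acute arrays were found for 2 members, MUS81 and MMS4, beside 10.8% of all strains.

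**Figure D1:**
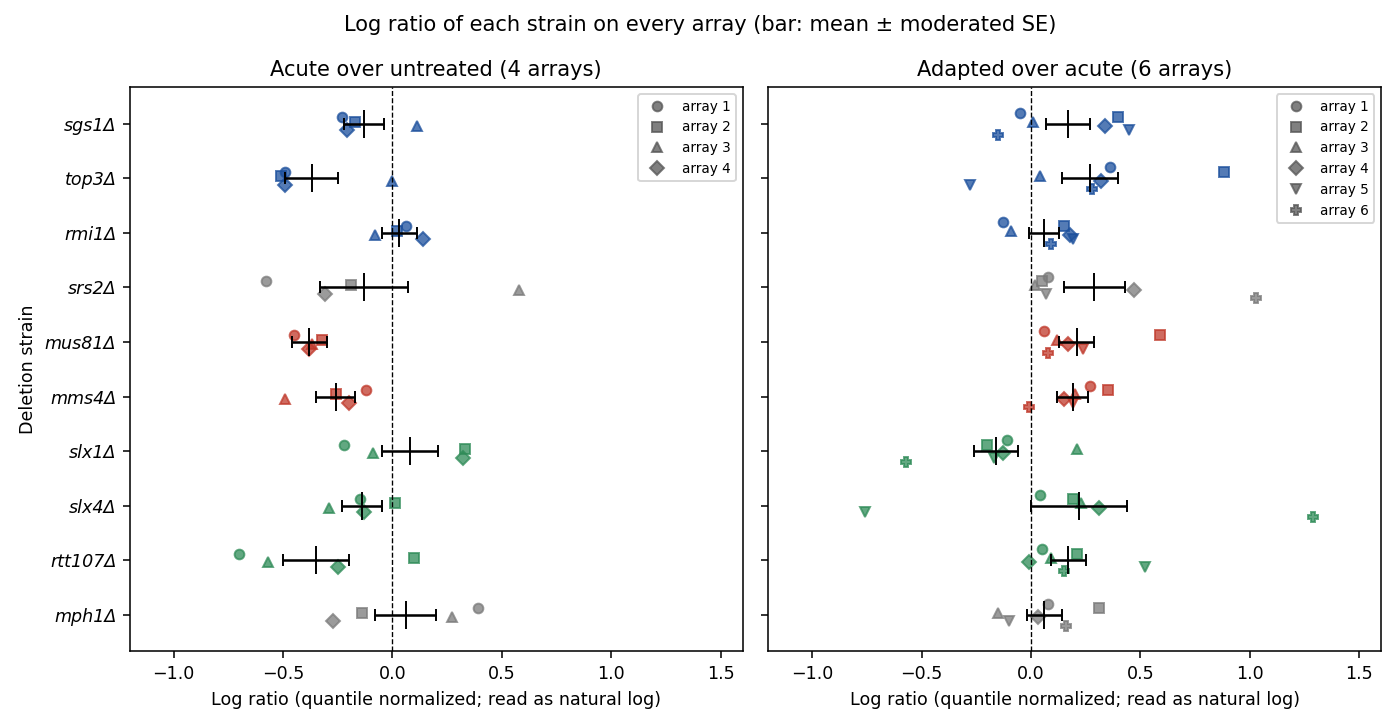
Log ratios (read as natural log, horizontal axis) of the 10 deletion strains on each acute over untreated array (left, n = 4) and each adapted over acute array (right, n = 6). Marker shapes are arrays, colours group partner genes (blue SGS1, TOP3 and RMI1, red MUS81 and MMS4, green SLX1, SLX4 and RTT107, grey SRS2 and MPH1), and black bars give the mean ± the standard error from limma. The MUS81 points of the acute panel lie between −0.45 and −0.32, and the SLX4 points of the adapted panel between −0.76 and 1.29.

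Mus81 is the catalytic subunit and Mms4 its obligate partner. The MUS81 strain had acute log ratios of −0.45, −0.32, −0.37 and −0.38 on replicates 1 to 4. These values lay close together, with the smallest SD of the 10 members (0.05), and their mean ranked 288 from the lowest of 4611 strains. The MMS4 strain had −0.12, −0.26, −0.49 and −0.20 (SD 0.16), a mean of −0.26 (SE 0.09, limma adjusted p = 0.332). All 8 values of the pair were below 0, and the strains overlapped in range. Within arrays, the MUS81 value minus the MMS4 value averaged −0.12 (SD 0.19, range −0.33 to 0.12, n = 4, exact sign-flip permutation p = 0.375, adjusted p = 0.5).

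The close agreement of the MUS81 values arose from tags that differed from array to array. Its first tag, normalized within its own set, gave −0.91, −0.16, −0.84 and −0.29 on acute replicates 1 to 4, and its second tag −0.11, −0.52, −0.11 and −0.63. Both tags were below 0 on 4 of 4 arrays, but the first was lowest on replicates 1 and 3, where the second was highest. The mean was −0.55 by the first tag and −0.34 by the second, and neither passed the threshold alone. With 1 spread shared by all strains the MUS81 call was lost, and leaving out any 1 acute array gave means from −0.41 to −0.34 and lost it each time. The MMS4 strain had acute tag means of −0.15 and −0.38.

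**Figure D2:**
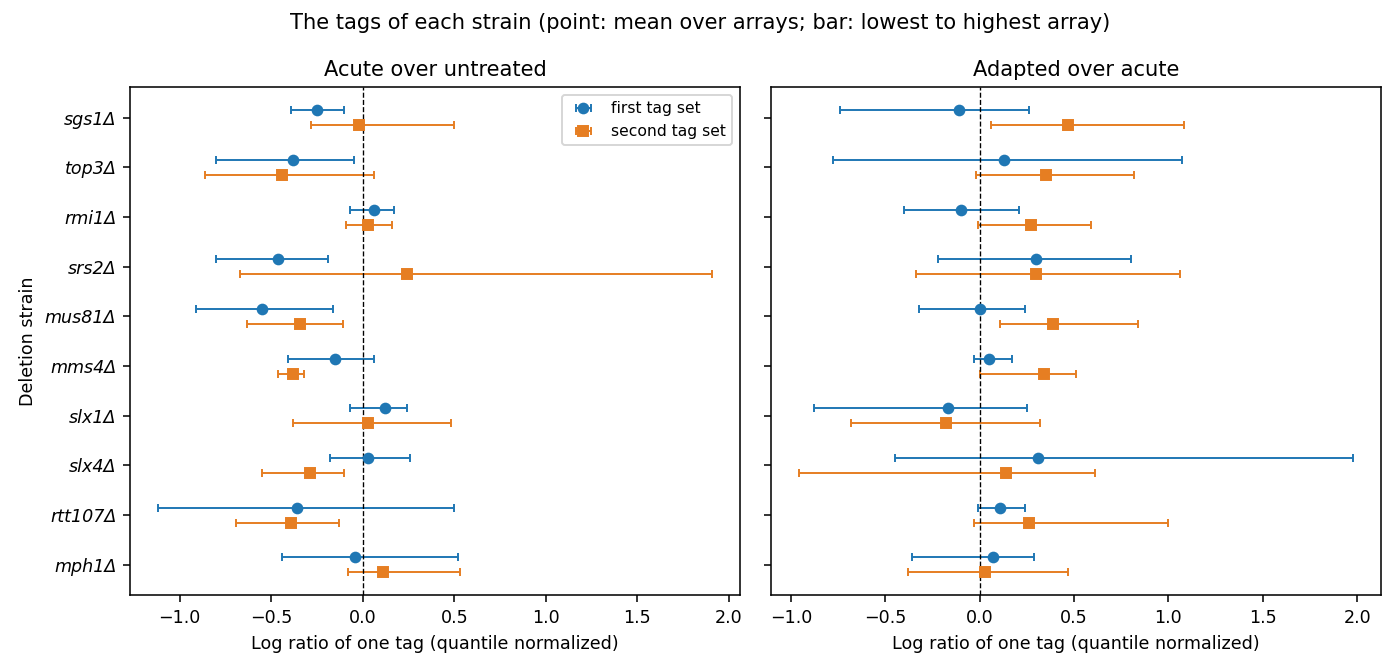
Mean log ratio (read as natural log, horizontal axis) of each member by the first and by the second tag set, for the acute arrays (left, n = 4) and the adapted arrays (right, n = 6), with bars from the lowest to the highest array. The second-tag SRS2 bar of the acute panel, around a mean of 0.24, is the longest there and reaches 1.91, and MUS81 has both acute tag means below 0.

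Top3 is the topoisomerase that passes strands through one another as Sgs1 unwinds them, and Rmi1 stimulates this reaction. The TOP3 strain had acute log ratios of −0.49, −0.51, 0.00 and −0.49 on replicates 1 to 4. The values of 3 arrays were nearly equal, while replicate 3 read 0.00, close to the median strain. The mean of −0.37 (SE 0.12) had a limma adjusted p of 0.273 and did not pass. Without replicate 3 the mean was −0.54, past the threshold. Both TOP3 tags were low on average, −0.38 by the first and −0.44 by the second, and both were near 0 on replicate 3, at −0.05 and 0.06.

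The SGS1 strain, which lacks the helicase of the same complex, had acute log ratios of −0.23, −0.17, 0.11 and −0.21. Replicate 3 again stood highest, and the mean of −0.13 (SE 0.09, limma adjusted p = 0.755) did not pass. The RMI1 strain had 0.06, 0.02, −0.08 and 0.14, scattered on both sides of 0, with a mean of 0.03 (SE 0.08, limma adjusted p = 0.945). The SGS1 value was above the TOP3 value on 4 of 4 arrays, by 0.25 on average (SD 0.10, range 0.10 to 0.34). In the exact sign-flip permutation test 2 of the 16 sign patterns were as extreme, the fewest that 4 arrays allow and too many for a p of 0.05, and the adjusted p was 0.482. The TOP3 value was below the RMI1 value on 3 of 4 arrays, with a mean difference of −0.41 (SD 0.33, range −0.63 to 0.08, n = 4, exact sign-flip permutation p = 0.25, adjusted p = 0.482). The SGS1 value minus the RMI1 value averaged −0.16 (SD 0.24, exact sign-flip permutation p = 0.25, n = 4).

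Slx1 holds the catalytic site of the Slx1-Slx4 nuclease, and Slx4 also serves as a platform that binds Rtt107. The RTT107 strain had acute log ratios of −0.70, 0.10, −0.57 and −0.25. The spread was wide (SD 0.36), replicate 2 lay above 0, and the mean of −0.35 (SE 0.15) had a limma adjusted p of 0.444. Its first tag carried most of that spread, with −1.12, 0.50, −0.93 and 0.09, while its second tag was below 0 on every acute array, between −0.69 and −0.13. The SLX4 strain had −0.15, 0.01, −0.29 and −0.13, a mean of −0.14 (SE 0.09, limma adjusted p = 0.678), and its tags differed in sign, with means of 0.03 and −0.29. The SLX1 strain had −0.22, 0.33, −0.09 and 0.32, 2 arrays on each side of 0, and a mean of 0.08 (SE 0.13, limma adjusted p = 0.915). The SLX1 value exceeded the SLX4 value by 0.22 on average (SD 0.22, range −0.07 to 0.44) and the SLX4 value exceeded the RTT107 value by 0.22 (SD 0.27, range −0.09 to 0.56), each with an exact sign-flip permutation p of 0.25 and an adjusted p of 0.482 (n = 4).

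Srs2 and Mph1 are helicases that act on recombination intermediates. The SRS2 strain had acute log ratios of −0.58, −0.19, 0.58 and −0.31, the largest acute SD of the 10 members (0.50), and a mean of −0.13 (SE 0.20, limma adjusted p = 0.918). Replicate 3 alone lay above 0, and there the second tag read 1.91 and the first −0.80, so that the tags of the strain pointed in opposite directions on that array. The first SRS2 tag was below 0 on every acute array, with a mean of −0.46. The MPH1 strain had 0.39, −0.14, 0.27 and −0.27, 2 arrays on each side of 0, with a mean of 0.06 (SE 0.14, limma adjusted p = 0.945). Over the 10 members, the tag means had the same sign in 7, beside 59.8% of the 4478 strains with both tags. Both acute tag means were below 0 in 5 members, beside 32.9% of those strains.

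The adapted arrays asked which strains gained or lost when a mild dose came before the high dose. In this comparison 1.26% of all strains passed with a higher value and 1.52% with a lower value, and 0 of the 10 members passed in either direction. An unadjusted limma p under 0.05 was found for 2 members (MUS81 and MMS4), beside 10.8% of all strains. The members' median was 0.179, beside −0.013 over all strains, and 9 of 10 lay above 0, beside 45.5% of all strains above 0. By the first tag alone 7 members lay above 0, and without adapted replicate 6 the number was 8. Values above 0 on 6 of 6 arrays were found for 2 members, SRS2 and MUS81, beside 3.43% of all strains. Values above 0 on at least 5 arrays were found for 6 members (TOP3, SRS2, MUS81, MMS4, SLX4 and RTT107), beside 12.7% of all strains.

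The MUS81 strain had adapted log ratios from 0.06 to 0.59 with a median of 0.14. All 6 arrays were above 0, and replicate 2 stood well above the others. The mean of 0.21 (SE 0.08) had a limma adjusted p of 0.387. Without replicate 2 the mean was 0.13. The MMS4 strain ranged from −0.01 to 0.35 with a median of 0.19, close to 0 on 1 array and above it on 5, and had a mean of 0.19 (SE 0.07, limma adjusted p = 0.318). The MUS81 value minus the MMS4 value averaged 0.02 (SD 0.15, range −0.21 to 0.25, n = 6), an exact sign-flip permutation p of 0.719.

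The second tags of both nuclease subunits carried the difference. By the second tag alone the MUS81 mean was 0.39 and the MMS4 mean 0.34, both past the threshold and above 0 on 6 of 6 arrays. On replicate 6, however, the second MMS4 tag was so close to 0 that it rounded to 0.00. By the first tag the MUS81 mean was 0.00 and the MMS4 mean 0.05. The SGS1 strain showed the same split, with a first-tag mean of −0.11 and a second-tag mean of 0.47 that was above 0 on 6 of 6 arrays. Over the members, the median adapted value was 0.06 by the first tag and 0.289 by the second. Tag means had the same sign in 8 of 10 members, beside 58.4% of strains, and both were above 0 in 7 members, beside 26.4%. These 7 include MUS81, whose first-tag mean of 0.00 has no clear sign.

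Among the Sgs1-Top3-Rmi1 strains, TOP3 had adapted log ratios from −0.28 to 0.88 with a median of 0.30. Replicate 5 alone lay below 0, and the mean was 0.27 (SE 0.13, limma adjusted p = 0.531), or 0.15 without replicate 2. The SGS1 strain ranged from −0.15 to 0.45 with a median of 0.17 and a mean of 0.17 (SE 0.10, limma adjusted p = 0.614), and the RMI1 strain from −0.13 to 0.19 with a median of 0.12 and a mean of 0.06 (SE 0.07, limma adjusted p = 0.843). The ranges of all 3 strains overlapped. Mean differences were −0.10 for SGS1 minus TOP3 (SD 0.46), 0.10 for SGS1 minus RMI1 (SD 0.19) and 0.20 for TOP3 minus RMI1 (SD 0.40), with exact sign-flip permutation p-values of 0.562, 0.219 and 0.281 (n = 6).

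The SRS2 strain had the highest adapted mean of the members, 0.29 (SE 0.14, limma adjusted p = 0.52). Its values ran from 0.02 to 1.03 with a median of 0.07, so that 4 of the 6 arrays were close to 0 and the mean came mainly from replicates 4 and 6, at 0.47 and 1.03. Without replicate 6 the SRS2 mean was 0.14, below those of TOP3 (0.27), MUS81 (0.24), MMS4 (0.23) and SGS1 (0.23) over the same 5 arrays. The SLX4 strain had the widest spread (SD 0.65), with a lowest value of −0.76, a median of 0.21 and a highest value of 1.29 on replicate 6, where its first tag read 1.98. Its mean of 0.22 (SE 0.22, limma adjusted p = 0.824) was −0.01 without that array. The RTT107 strain ranged from −0.01 to 0.52 with a median of 0.12 and a mean of 0.17 (SE 0.08, limma adjusted p = 0.519), highest on replicate 5.

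The SLX1 strain was the only member with an adapted mean below 0, at −0.16 (SE 0.10, limma adjusted p = 0.611), and its values ran from −0.57 to 0.21 with a median of −0.15. It was below 0 on 5 of 6 arrays, and both tag means were below 0, at −0.17 and −0.18. The SLX1 value minus that of its partner SLX4 averaged −0.38 with an SD of 0.81, from −1.86 to 0.58, and SLX4 minus RTT107 averaged 0.05 with an SD of 0.78, from −1.28 to 1.14. Exact sign-flip permutation p-values were 0.375 and 0.844 (n = 6). The MPH1 strain ranged from −0.15 to 0.31 with a median of 0.06 and a mean of 0.06 (SE 0.08, limma adjusted p = 0.882). In all, 6 partner pairs were compared in each set of arrays, and 0 of these 12 tests passed an unadjusted or an adjusted p of 0.05. The smallest share that 4 arrays can give is 2 of 16 sign patterns, and 6 arrays cannot give an exact p below 0.03125. With these limits no pair of either set could pass an adjusted p of 0.05 over 12 tests. The adjusted outcome was therefore fixed by the number of arrays and does not show that partners behaved alike.

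**Figure D3:**
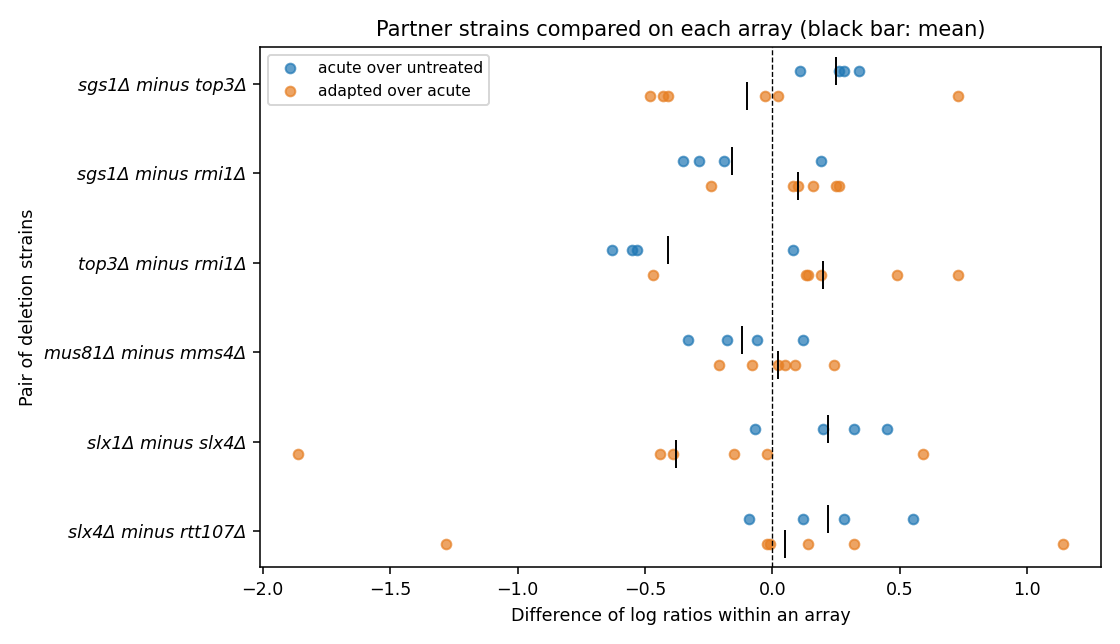
Within-array differences in log ratio (read as natural log, horizontal axis) between partner strains, for the acute arrays (n = 4) and the adapted arrays (n = 6). Points are arrays and black bars the mean. All 4 acute differences of SGS1 minus TOP3 lie above 0, between 0.10 and 0.34, and the adapted differences that involve SLX4 span the widest range.

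The adaptive contrast asked whether the gain with pretreatment matched the loss after the high dose alone. It is minus the sum of a strain's acute mean and its adapted mean. For a strain with an acute loss and an adapted gain, it lies above 0 where the gain falls short of the loss. The RMI1, SLX1 and MPH1 strains had acute means above 0, and for them the contrast has no such reading. Over all strains, 1.54% passed with a higher value and 0.173% with a lower value, and 0 of the 10 members passed. The members ran from −0.16 (SRS2) to 0.19 (RTT107), 5 above and 5 below 0, with a median of 0.017 beside 0.024 over all strains. An unadjusted limma p under 0.05 was found for 0 of 10 members, beside 5.55% of all strains, and every member had a limma adjusted p of 0.999. The MUS81 strain had 0.17 (SE 0.12, limma adjusted p = 0.999) and the TOP3 strain 0.11 (SE 0.20, limma adjusted p = 0.999). The strain without YAP1 had 2.04 (SE 0.20, limma adjusted p = 0.00126), with an adapted mean of −0.40 (SE 0.13) beside its acute mean of −1.64, both read from its first tag alone.

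Strains without other genes of the same repair network were read from 6 lists, of which 38 of 40 genes were measured. Lists and members were chosen with earlier results of these data known. Of the 38 strains, 6 passed with a lower acute value and 0 with a higher one, beside 2.67% and 0.933% of all strains. Their median was −0.158, beside −0.015, and 25 lay below 0, beside 54.8% of all strains. Under another normalization, with each tag alone, with other spreads or without 1 acute array the number that passed lower ran from 1 to 8, and after Benjamini-Hochberg adjustment it was 0. In the adapted comparison 4 of 38 passed with a higher value and 0 with a lower one, beside 1.26% and 1.52% of all strains, and the median was 0.078, beside −0.013. The number of higher values was 0 by the second tag alone or after adjustment and 1 to 4 without 1 adapted array.

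The Rad52 group, which processes broken ends and carries out strand exchange, had 10 measured strains, all with an acute mean below 0 (median −0.446). RAD59, a paralog of RAD52 that anneals strands, fell by 0.60 (SE 0.09, limma adjusted p = 0.0807), with arrays from −0.78 to −0.42. RAD57, a mediator of strand exchange, fell by 0.62 (SE 0.11, limma adjusted p = 0.0995), and RAD54, a DNA translocase of strand invasion, fell by 0.57 (SE 0.12, limma adjusted p = 0.121). All 3 strains were below 0 on 4 of 4 arrays. In the adapted arrays RAD59 rose by 0.44 (SE 0.10, limma adjusted p = 0.15) and RAD55, the partner of Rad57, rose by 0.47 (SE 0.12, limma adjusted p = 0.163), both above 0 on 6 of 6 arrays. The acute mean of the RAD55 strain, −0.53 (SE 0.13, limma adjusted p = 0.159), did not pass.

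The Shu complex, which promotes recombination at damaged forks, had 4 measured strains with acute means below 0 (median −0.335), of which SHU1 fell by 0.37 (SE 0.08, limma adjusted p = 0.136). Of the other helicases and topoisomerases, 2 of 6 strains passed both lower in the acute and higher in the adapted arrays, although the list's acute median was 0.039. Over all strains, 2.67% passed lower in the acute and 1.26% higher in the adapted arrays. RAD5, a helicase and ubiquitin ligase of damage tolerance, fell by 0.85 in the acute arrays (SE 0.11, limma adjusted p = 0.0761, range −1.10 to −0.60) and rose by 0.45 in the adapted arrays (SE 0.08, limma adjusted p = 0.0879). TOP1, which relaxes supercoils, fell by 0.67 (SE 0.13, limma adjusted p = 0.0995) and rose by 0.56 (SE 0.13, limma adjusted p = 0.149). No strain passed among the other structure-specific nucleases (6 measured, acute median −0.091), the Rtt107 partners and SUMO-linked factors (7 measured, 0.054) or the fork protection factors (5 measured, 0.021). The acute means of RAD5, TOP1, RAD57, RAD59 and RAD54 were all lower than that of any of the 10 members, and that of SHU1 was not. These strains were named because their acute values passed, a choice that favours low means, and no test of levels was made.

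**Figure D4:**
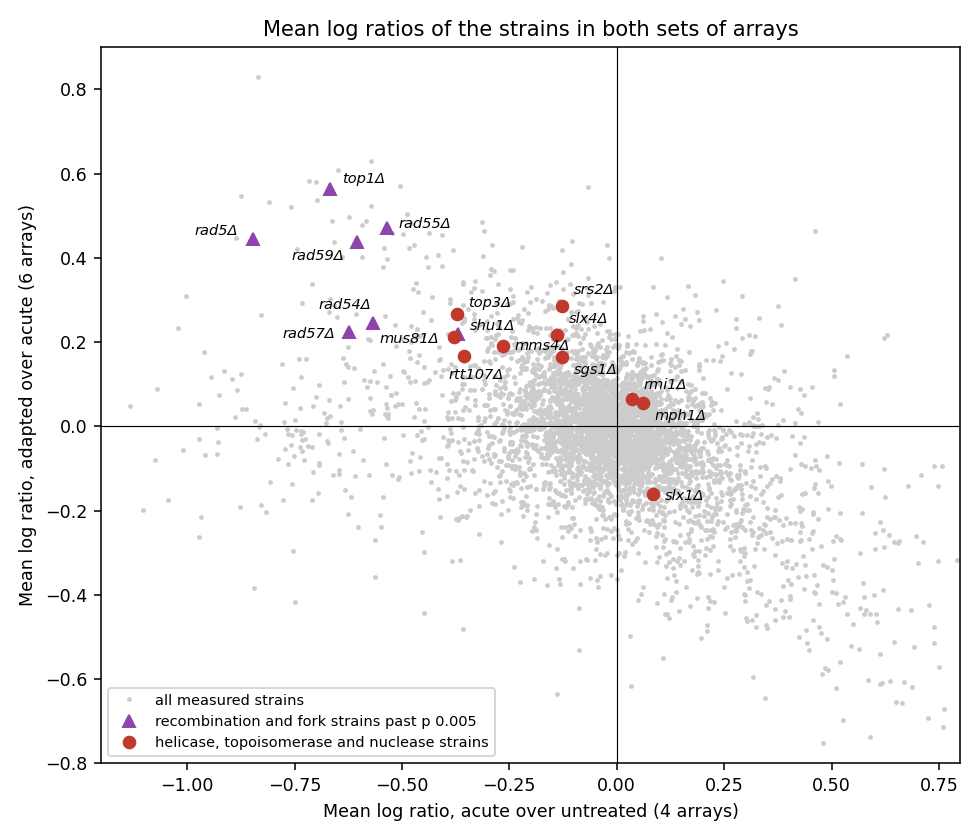
Acute mean log ratio (horizontal axis) and adapted mean log ratio (vertical axis), both natural log, of all strains (grey), the 10 members and the strains of the other lists that passed in either comparison. The RAD5 point lies at −0.85 and 0.45 and the MUS81 point at −0.38 and 0.21, and 13 strains fall outside the plotted range.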

How the data were processed

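Pooled deletion strains were measured on 10 two-colour barcode arrays, 4 that set acute against untreated cells and 6 that set adapted against acute cells. The deposited values are natural log ratios per spot, as read here, which the authors made in R with hoptag after median and loess correction. No source used here names the log base, and another base would rescale ratios and SEs but change no p. Precision is limited by the number of arrays, and the brightness of the spots was not used here.

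Of 22575 spots, 16850 held a value on every array and 5725 on none. The platform annotation named 18794 spots, of which 18786 matched a RefSeq gene. Spots above 5400 were turned in sign: in the first tag set, 3510 replicate spots above that number equalled their main spot with the sign reversed, and 0 with the same sign (tolerance 1e-09). All second-tag spots were turned too, and that check does not cover them. Among strains with a spot up to 5400, first and second tags correlated weakly after turning, at 0.0537 to 0.218 on single arrays. Spots were averaged per tag, then tags per strain, and the arrays of a comparison were quantile normalized together, which gave 4611 strains, 4478 with both tags and 133 with the first alone. The sources used here do not say whether the first set is UPTAG or DNTAG. All 10 members had both tags. SGS1 (YMR190C), TOP3 (YLR234W), SRS2 (YJL092W), MUS81 (YDR386W), SLX4 (YLR135W) and RTT107 (YHR154W) had 12 spots that repeat 1 value per tag, MMS4 (YBR098W) had 4, and RMI1 (YPL024W), SLX1 (YBR228W) and MPH1 (YIR002C) had 2.

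Means were tested against 0 with limma 3.58.1 in R 4.3.3 (lmFit and eBayes, two-sided) over all strains, at the unadjusted p of 0.005 that the methods use, with Benjamini-Hochberg adjustment beside it. The adaptive contrast used all 10 arrays. Partner strains were compared by exact sign flips of within-array differences, two-sided, adjusted over 12 tests. The fit was also run on simulated data with noise independent between arrays, whereas the measured arrays were correlated to differing degrees. Tables and plots used Python 3.11.15, numpy 2.4.6, pandas 2.3.3, scipy 1.17.1 and matplotlib 3.10.9. Alternatives left out the quantile step, centred arrays on their median, averaged spots plainly, used 1 tag set, changed the spread, used adjusted p-values, left out arrays or blocked on replicate number.

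Named strains are the 10 members, every strain of the 6 lists past a threshold, and YAP1 and SKN7 for direction. Members and lists were chosen with earlier results of these data known. Of the 40 listed genes, 2 were not analysed here.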

Additional observations from a re-analysis of the deposited data

Results flagged for a closer look

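Of 20 sets of replicate values of the 10 members (4 acute or 6 adapted arrays each), 2 held an array far from the rest by Dixon's test at the 95% level, which flags about 1 in 20 sets by chance. The TOP3 strain had a value of 0.00 on acute replicate 3, above −0.51 to −0.49 on the other arrays, and this gap covered 0.955 of the whole range. The MUS81 strain had a value of 0.59 on adapted replicate 2, the highest of 6, with a gap that covered 0.661 of the range.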

How the results depend on the processing

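The number of members called in the acute comparison, 1 (MUS81), was 0 with the first tag alone, the second tag alone, 1 shared spread or adjusted p-values. Without 1 array it was 0 to 1, the MUS81 call was lost each time, and the 1 call, without acute replicate 3, was TOP3. The adapted count of 0 became 2 with the second tag alone. Over all strains, 166 acute calls became 76 (first tag), 70 (no moderation), 264 (shared spread), 3 (adjusted) and 79 to 125 (without 1 array). The 128 adapted calls became 65 (first tag), 195 (shared spread), 1 (adjusted), 77 to 109 (without 1 array) and 59 without adapted replicates 2 and 4, an alternative chosen after seeing the data. The 79 contrast calls became 44 (first tag), 49 (no moderation), 128 (shared spread), 16 (adjusted) and 52 to 82 (without 1 array). Causes were not tested.

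The acute mean of MUS81 kept its sign in every setting. Among values not past the threshold, the acute mean became 0.03 (SLX4) and −0.04 (MPH1) by the first tag and 0.24 (SRS2) by the second, and the adapted mean −0.11 (SGS1) and −0.10 (RMI1) by the first. The contrast became 0.35 (SGS1), 0.04 (RMI1) and 0.16 (SRS2) by the first tag, −0.05 (MUS81) and 0.15 (SLX4) by the second, −0.01 (SLX1) after median centring and 0.07 (SGS1) without adapted replicates 2 and 4. Without 1 array, acute means ran from −0.06 to 0.19 (MPH1), −0.01 to 0.19 (SLX1) and −0.39 to 0.01 (SRS2), the adapted mean from −0.01 to 0.43 (SLX4), and contrasts from −0.11 to 0.05 (SGS1), −0.03 to 0.17 (SLX1), −0.29 to 0.14 (SLX4), −0.30 to 0.10 (SRS2), −0.01 to 0.27 (TOP3) and −0.25 to 0.00 (MPH1).

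Replicate numbers 1 to 4 recur in both sets, and deviations of same-numbered arrays correlated at −0.339, 0.264, −0.169 and −0.236. The labels only number the arrays and state no pairing, and correlations of mixed sign cannot decide whether the numbers pair. With the replicate number as a block, the contrast gave 71 calls and 0 members, with −0.03 for TOP3 and −0.03 for SLX1. No partner difference passed without quantile normalization, with either tag alone or without 1 array. The acute pairs, with 4 arrays or fewer, could not pass even an unadjusted p of 0.05. After adjustment the adapted pairs could not pass either, because they too had few arrays. The adjusted outcome was therefore fixed in each of these settings and does not show that partners behaved alike.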
